A study of Mus musculus with 12 samples.

Results

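Transcripts of 10 circadian clock genes were measured in the cortex of 7-day-old mice: Clock, Arntl, Per1, Per2, Per3, Cry1, Cry2, Nr1d1, Nr1d2 and Dbp. They were chosen by gene symbol, as the core loop of the molecular clock and its best-known output genes, and the counts of all transcripts that carry a symbol were summed. They are 10 of 24452 gene symbols in the data, and all 10 passed the low-count filter that left 14739 symbols for testing. The RNA came from the somatosensory cortex of male mice on a C57BL/6 background, in 4 groups of 3 libraries. WT and p53 KO pups were bred from heterozygous parents. Each mouse received a pair of intraperitoneal injections 2 h apart, of ethanol (2.5 g/kg at each injection) in the ethanol groups and of saline in the saline groups, and brains were taken 8 h after the second. KO mice carry a targeted disruption of Trp53, the gene of the p53 tumor suppressor, in every cell of the body. Lights were on for 12 h a day, and by the stated injection schedule the tissue was collected 11 to 13 h after lights on. The clock hour of each single library was not given in the labels, so a difference in hour between libraries cannot be told apart from the groups.

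The molecular clock is a feedback loop that runs in most cells. CLOCK and BMAL1, the product of Arntl, bind E-box sequences and switch on the Per and Cry genes, whose proteins gather and then block CLOCK and BMAL1. A second arm runs through REV-ERBα (Nr1d1) and REV-ERBβ (Nr1d2), which are also switched on from E-boxes and repress Arntl through ROR elements. DBP, an output of the loop, binds D-boxes, to which Per genes can also respond. In cortex, Per1 and Per2 are known to respond to neuronal activity and glucocorticoids as well as to the hour of the day.

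With all 12 libraries, none of the 10 clock genes passed an adjusted p of 0.05 in any comparison, and the number that passed an unadjusted p of 0.05 was close to that of genes in general. In WT ethanol versus WT saline 2 of 10 members passed the unadjusted level (Clock and Per3, both higher), beside 18.3% of all 14739 symbols. In KO saline versus WT saline it was 3 of 10 (Clock and Per3 higher, Dbp lower), beside 19.6%. KO ethanol versus KO saline gave 0 of 10 by edgeR and 0 of 10 by DESeq2 at the unadjusted level, beside 3.15% by edgeR. KO ethanol versus WT ethanol gave 1 of 10 (Clock, lower), beside 3.24%. The Genotype x Treatment interaction gave 2 of 10 (Clock and Nr1d2, both with a lower ethanol effect in KO mice), beside 15.2%. The main effect of Treatment gave 0 of 10 by either tool, beside 7.09%. At an adjusted p of 0.05, edgeR called 0.0746% of all symbols in WT ethanol versus WT saline and 0.0543% in KO saline versus WT saline, and 0.0% in each of the other 4 comparisons. At that level DESeq2 called 488 and 717 symbols in the first 2, 255 for the interaction, 51 for the main effect of Treatment, 2 in KO ethanol versus KO saline and 3 in KO ethanol versus WT ethanol, with 0 members among them in each comparison. Comparisons that have a group in common share its 3 libraries.

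The members' median log2 fold change stood above that of genes in general with ethanol in WT mice in the counts as deposited. These medians are of signed values, in which rises and falls cancel, so they describe direction and not the size of single differences. The median log2 fold change of the 10 members was 0.42 in WT ethanol versus WT saline, against 0.059 over all symbols, and 0.017 in KO saline versus WT saline, against 0.041. It was 0.10 in KO ethanol versus KO saline, against 0.0082, and -0.15 in KO ethanol versus WT ethanol, against -0.035. Members with a positive value in WT ethanol versus WT saline numbered 8 of 10. After each library's trends with transcript length and GC content were removed, they numbered 4 of 10, and the members' median was -0.072, against -0.19 over all symbols. That removal moved the median of all symbols to -0.18 in KO saline versus WT saline, 0.17 in KO ethanol versus KO saline, 0.18 in KO ethanol versus WT ethanol and 0.31 for the interaction, and trend-removed values of single members are to be read against these. In the same order, the members' medians were then -0.36, 0.17, -0.053 and 0.29. Members whose 3 libraries lay wholly above or below those of the other group numbered 2 in WT ethanol versus WT saline (19.6% of all symbols did so), 1 in KO saline versus WT saline (22.9%), 1 in KO ethanol versus KO saline (10.8%) and 2 in KO ethanol versus WT ethanol (12.7%).

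**Figure D1:**
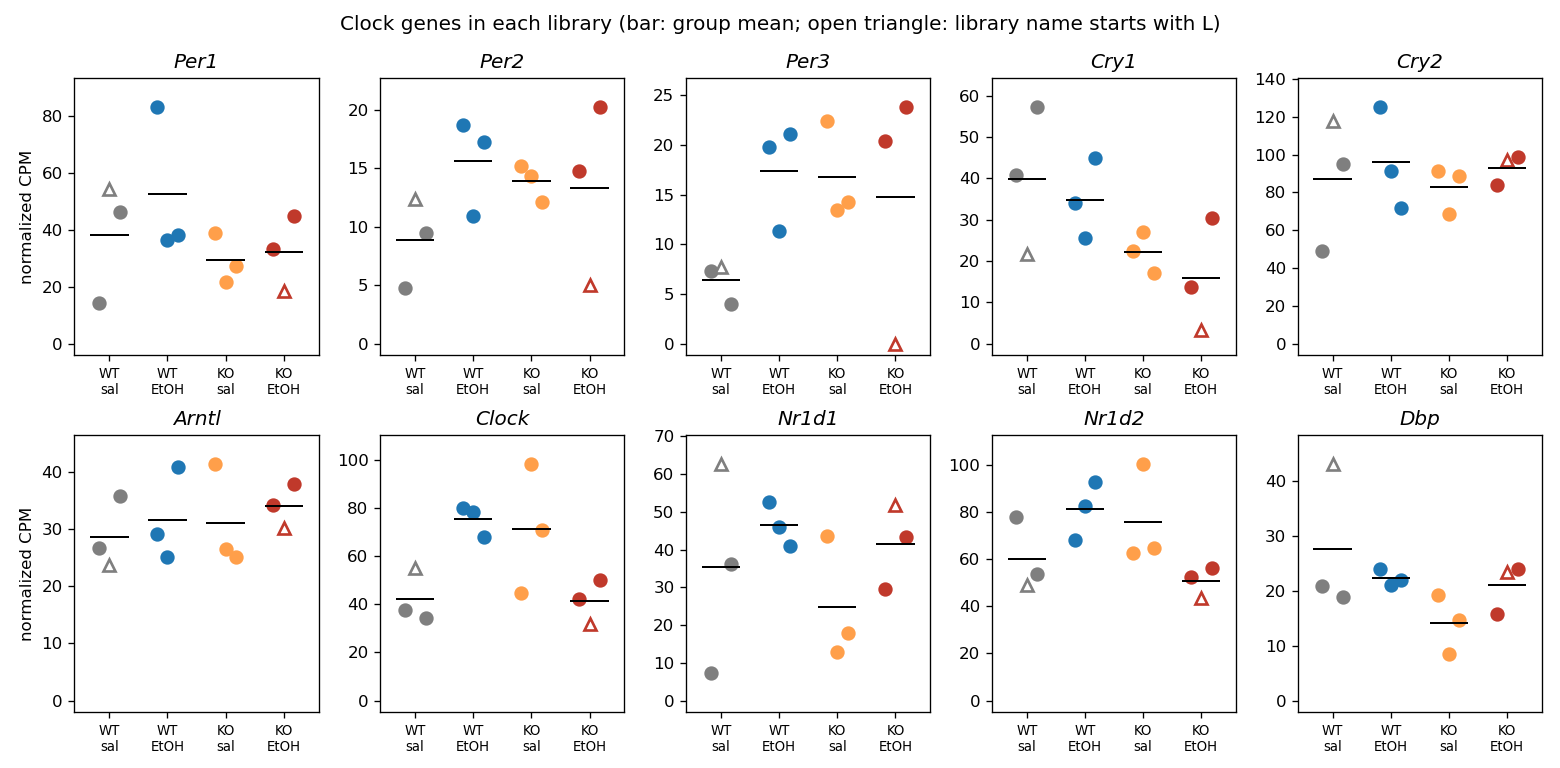
Normalized CPM (counts scaled to a common library total with TMM factors) of each clock gene on the y axis, by group on the x axis. Each point is 1 library, the bar is the mean of 3, and open triangles are the 2 libraries whose names start with L. The 3 WT ethanol libraries of Clock, from 68.0 to 79.9, lie above the 3 WT saline libraries, from 34.5 to 55.0, while the groups of Per1, Cry2, Arntl and Nr1d1 overlap throughout.

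The libraries differed in ways that touch these genes. Totals ran from 719735 estimated counts in KO ethanol replicate 12 to 17066392 in KO saline replicate 8, and members had 0 to 58.0 counts in the former and 15.0 to 2214 in the other 11 libraries. KO ethanol replicate 12 and WT saline replicate 3 are the 2 libraries whose names start with L. Long transcripts were under-represented in some libraries: the log2 level changed by -0.53, -0.034 and -0.28 per doubling of transcript length in WT saline replicates 1, 3 and 13 and by -0.38 in KO ethanol replicate 12, and by 0.033 to 0.31 in the other 8. Each member is therefore also given after removal of the trends with length and GC content, library by library. Summed Trp53 reads do not check the labels, since the KO allele keeps part of the gene: they ranged from 3.67 to 26.2 normalized CPM after saline and 7.23 to 20.0 after ethanol in WT mice, and 11.1 to 27.6 and 23.4 to 28.7 in KO mice. The 5 markers of excitatory cortical neurons were present in every library, with summed levels of 314 to 1285 normalized CPM, and the median of their log2 fold changes in WT ethanol versus WT saline was -0.77. The 3 markers of inhibitory neurons summed to 128 to 165 normalized CPM after saline and 291 to 344 after ethanol in WT mice, and to 191 to 224 and 162 to 251 in KO mice, and 2 of the 3 (Gad1 and Gad2) were higher in WT ethanol than in WT saline at an unadjusted p of 0.0100 and 0.00111. The 4 choroid plexus markers summed to 4.11 to 118 after saline and 23.0 to 4997 after ethanol in WT mice, and to 24.9 to 2249 and 1.67 to 2211 in KO mice, with Ttr, Folr1 and Clic6 at 0 in a KO ethanol library. In WT ethanol replicates 4, 5 and 14, Ttr was at 4919, 19.9 and 55.5, Kcne2 at 11.9, 1.39 and 1.76, and Clic6 at 46.2, 1.58 and 3.86. In WT saline they were at 2.06 to 109, 0.514 to 0.735 and 0.367 to 1.71. These 3 of the 4 were higher in WT ethanol than in WT saline at the unadjusted level, with replicate 4 far above the other WT ethanol libraries. Of the other markers, 0 of 5 excitatory, 0 of 4 astrocyte, 0 of 5 oligodendrocyte, 1 of 5 microglial (lower) and 1 of 3 endothelial markers (higher) passed it in that comparison. The part of these cell types in the results below was not tested, and in bulk tissue fewer cells of a type and less RNA per cell cannot be told apart.

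Mean levels per transcript length differed among the members, from 1.92 RPKM for Per3 to 20.3 for Cry2. By mean RPKM over the 12 libraries, the order was Cry2 (20.3 ± 5.39, SD, n = 12), Nr1d2 (12.8 ± 3.37), Nr1d1 (11.9 ± 5.37), Dbp (11.1 ± 4.16), Arntl (9.94 ± 1.99), Cry1 (8.10 ± 4.03), Per1 (7.33 ± 3.33), Clock (5.33 ± 1.57), Per2 (1.96 ± 0.504) and Per3 (1.92 ± 0.910). Neighbours in this order overlapped over the libraries, with the exception of Clock and Per2: the lowest RPKM of Clock was 3.32 and the highest of Per2 was 2.79. The authors' RPKM have nearly the same sorted values in all libraries, so a level here is a place in a shared distribution. Among replicates of a group, the SD of log2 normalized CPM was 0.30 for Nr1d2, 0.31 for Arntl, 0.38 for Clock, 0.40 for Cry2 and 0.46 for Dbp, below the median of 0.62 over all symbols tested. It was 0.64 for Per2, 0.72 for Per1, 0.88 for Cry1, 0.92 for Nr1d1 and 1.64 for Per3, the last above that of 98.4% of symbols. The Per3 SD rests largely on a count of 0.0 in KO ethanol replicate 12, the library with the fewest counts. In KO ethanol replicates 10 and 18 Per3 was at 20.4 and 23.9 normalized CPM. The Cry1 SD includes a value from 2.0 counts in replicate 12.

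Clock (mm10 chr5:76209868-76304792, minus strand, 3 transcripts) encodes the DNA-binding partner of BMAL1 and gave the smallest p of the members. Its normalized CPM was 37.5, 55.0 and 34.5 in WT saline (replicates 1, 3 and 13) and 79.9, 78.6 and 68.0 in WT ethanol (replicates 4, 5 and 14). In KO mice it was 44.6, 98.4 and 71.1 after saline (replicates 7, 8 and 9) and 42.3, 31.8 and 50.2 after ethanol (replicates 10, 12 and 18). Mir1191, whose span in the files covers Clock, had 0.0 counts in all libraries. WT ethanol libraries were all above WT saline and above KO ethanol libraries, while KO saline overlapped all other groups. Group means were 42.3 ± 11.1 (SD, n = 3) after saline and 75.5 ± 6.53 after ethanol in WT mice, and 71.4 ± 26.9 after saline and 41.4 ± 9.24 after ethanol in KO mice.

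Clock had a log2 fold change of 0.84 (SE 0.36) in WT ethanol versus WT saline, with an unadjusted p of 0.0322 and an adjusted p of 0.239 by edgeR's quasi-likelihood test. In KO ethanol versus KO saline it was -0.76 (SE 0.36), with an unadjusted p of 0.05005 that did not pass the level and an adjusted p of 0.999 by edgeR. The difference between these 2 ethanol effects, the Genotype x Treatment interaction, was -1.60 (SE 0.50), with an unadjusted p of 0.00637 and an adjusted p of 0.250 by edgeR. Clock was also higher in KO saline than in WT saline (log2 fold change 0.76, SE 0.35, unadjusted p = 0.0494) and lower in KO ethanol than in WT ethanol (-0.84, SE 0.36, unadjusted p = 0.0327), with adjusted p of 0.254 and 0.982 by edgeR. The interaction stayed under an unadjusted p of 0.05 without any 1 of the 12 libraries, from -1.79 to -1.30. The ethanol call in WT was lost without WT saline replicate 1 or 13, WT ethanol replicate 4, 5 or 14, or KO saline replicate 9 (0.72 to 0.86). The KO saline call held only without WT saline replicate 3, KO saline replicate 7 or KO ethanol replicate 12, and its log2 fold change was 0.46 without KO saline replicate 8. The KO ethanol versus WT ethanol call was lost without WT ethanol replicate 4, 5 or 14, KO saline replicate 9, or KO ethanol replicate 10 or 12 (-0.86 to -0.71). KO ethanol versus KO saline passed the unadjusted level without WT saline replicate 1 (-0.76) or 3 (-0.73) or KO saline replicate 7 (-0.98).

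Clock has a long, AT-rich mRNA, and its level followed the libraries' length trend. Its transcript of 5508 bases has 42.2% GC, against medians of 2957 bases and 50.4% over the tested symbols with both values. Over the 12 libraries, the Pearson correlation of its log2 level with the length slope was 0.79, a description only, since the points share groups and normalization. After the length and GC trend was removed, Clock was at 35.1, 81.3 and 45.7 normalized CPM after saline and 63.9, 62.4 and 58.2 after ethanol in WT mice, and 45.3, 59.7 and 53.2 after saline and 43.4, 68.3 and 50.7 after ethanol in KO mice. The groups then overlapped in all 4 comparisons. Its log2 fold changes were 0.21 in WT ethanol versus WT saline (unadjusted p = 0.541), -0.014 in KO saline versus WT saline (unadjusted p = 0.967), and -0.22 for the interaction (unadjusted p = 0.647), all by edgeR. On log2(RPKM + 1), the interaction was -0.82 with an unadjusted p of 0.0618 by limma.

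**Figure D2:**
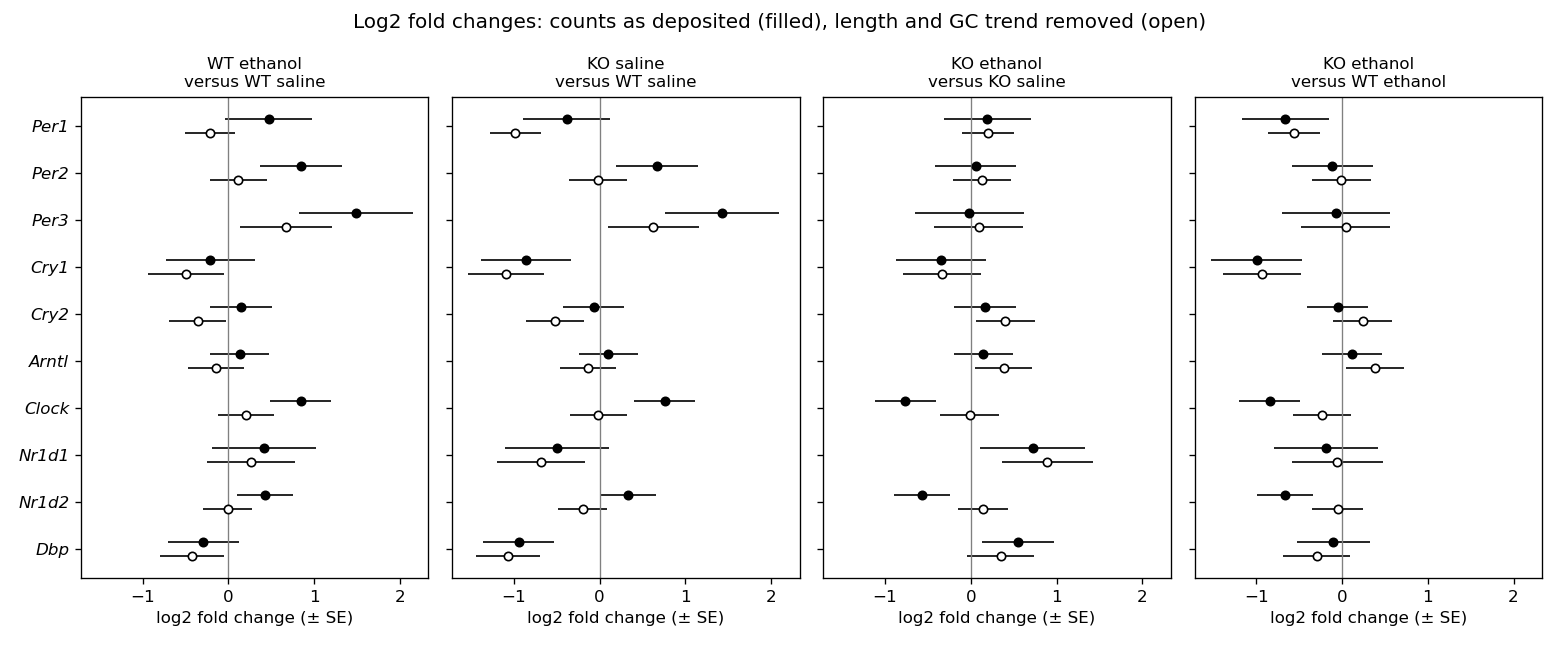
Log2 fold changes of the 10 clock genes (x axis, bars ± SE) in the 4 comparisons of groups, from the counts as deposited (filled) and with each library's length and GC trend removed (open). The Clock estimate moved from 0.84 to 0.21 in WT ethanol versus WT saline, and the Dbp estimate from -0.94 to -1.07 in KO saline versus WT saline.

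Arntl (mm10 chr7:113207465-113314126, plus strand, 2 transcripts), which encodes BMAL1, had the narrowest range of log2 fold changes of the members. It was at 26.6, 23.7 and 35.7 normalized CPM after saline and 29.1, 25.02 and 40.8 after ethanol in WT mice, and 41.4, 26.4 and 25.2 after saline and 34.1, 30.1 and 37.9 after ethanol in KO mice. All groups overlapped. Over the 4 comparisons of groups, its log2 fold changes ran from 0.10 to 0.15 with SE from 0.34 to 0.35, and the lowest unadjusted p was 0.678. With the trend removed they ran from -0.14 to 0.38, and none passed the unadjusted level by edgeR. The correlation of its log2 level with the length slope was 0.049. An ROR element, the sequence through which REV-ERB and ROR proteins act on this gene, lies 30 bases after 1 of its annotated starts in the RefSeq promoter table (GRCm38.p6, the assembly of mm10). It is shown here, chr7:113207516-113207560 on the plus strand, with the TAGGTCA match in capitals.
Arntl: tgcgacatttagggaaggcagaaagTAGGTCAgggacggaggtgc

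Libraries differed in how the Arntl counts were divided between its transcripts. The transcript NM_001243048 received 85.6%, 99.5% and 16.6% of Arntl counts in WT saline replicates 1, 3 and 13 and 45.1% in KO ethanol replicate 12. In the other 8 libraries it received 7.27% to 27.3%. The other transcript, NM_007489, received the remainder, so a comparison of single transcripts between WT saline and another group rests on which of these libraries it holds. The numbers behind the shares were 145 Arntl counts in WT saline replicate 1, 46.0 in replicate 3 and 18.0 in KO ethanol replicate 12. The 3 Per3 transcripts stood at 37.1%, 24.9% and 38.0% in 9 of the 11 libraries with Per3 counts and the 2 Per1 transcripts at 53.9% and 46.1% in 6 of 12, shares that repeat to the second decimal, so single-transcript values of Per1 and Per3 carry little beyond the sum.

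**Figure D3:**
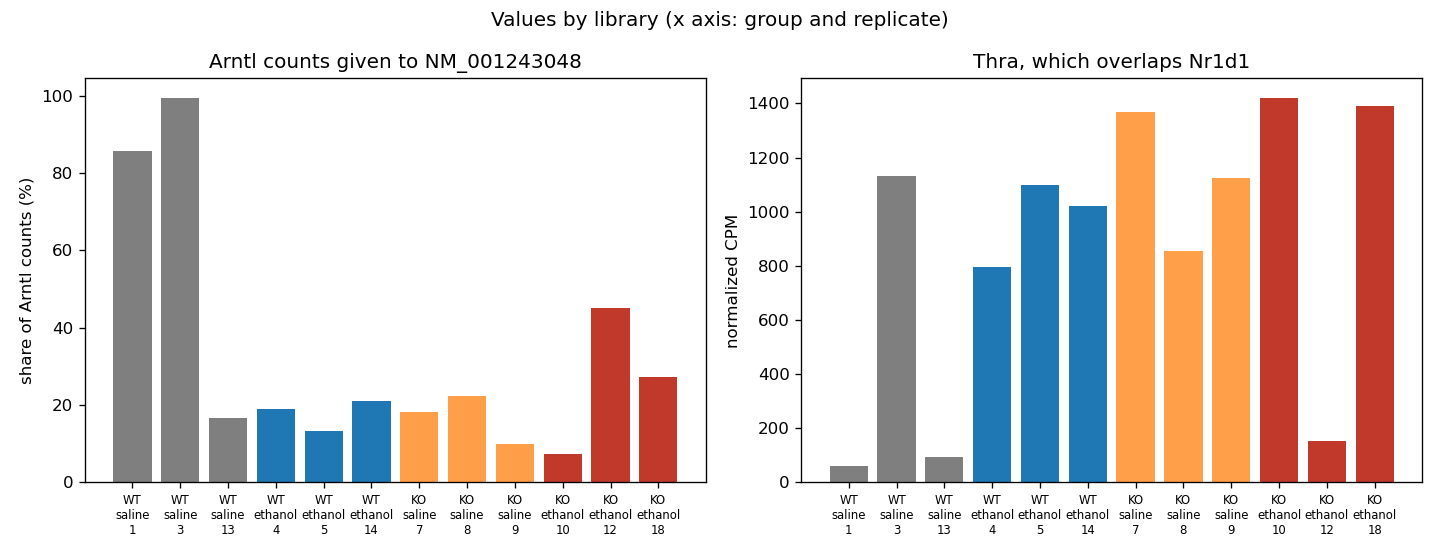
Left, share of Arntl counts (%) given to the transcript NM_001243048 in each library. Right, normalized CPM of Thra, which overlaps Nr1d1 on the opposite strand. The x axes give group and replicate. The share is 85.6% and 99.5% in WT saline replicates 1 and 3, and Thra is lowest in WT saline replicates 1 and 13 and KO ethanol replicate 12.

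The 3 Per genes encode the PERIOD repressors, and Per3 alone of them passed the unadjusted level in any comparison of the counts as deposited. Per3 (mm10 chr4:151003655-151044665, minus strand) gave the largest log2 fold change between groups of any member. It was at 7.35, 7.71 and 4.01 normalized CPM in WT saline and 19.8, 11.3 and 21.1 in WT ethanol. In KO mice it was at 22.4, 13.5 and 14.3 after saline and 20.4, 0.0 and 23.9 after ethanol. The 3 WT saline libraries were below all WT ethanol and KO saline libraries. The 0.0 is KO ethanol replicate 12, where 3 counts, the limit that a count of 0 allows, would be 5.01 normalized CPM.

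For Per3 the log2 fold change was 1.48 (SE 0.66) in WT ethanol versus WT saline, with an unadjusted p of 0.0419 and an adjusted p of 0.256 by edgeR. In KO saline versus WT saline it was 1.43 (SE 0.66), with an unadjusted p of 0.0482 and an adjusted p of 0.252 by edgeR. Both comparisons rest on 40.0, 15.0 and 54.0 Per3 counts in the WT saline libraries. Without the 2 libraries named with L, the adjusted p was 0.0290 for WT ethanol versus WT saline (log2 fold change 1.55) and 0.0271 for KO saline versus WT saline (1.51) by edgeR, where 21.5% and 25.3% of all symbols passed the adjusted level. After removal of the trend they were 0.67 (unadjusted p = 0.225) and 0.63 (unadjusted p = 0.255) by edgeR. Per3 has the longest transcript of the members, 5999 bases, and its correlation with the length slope was 0.70. The WT ethanol call held without WT saline replicate 3, WT ethanol replicate 5 or KO ethanol replicate 12 and was lost without any 1 of the other 9 libraries, from 1.21 to 1.62. The KO saline call held without WT saline replicate 3 or KO ethanol replicate 12 and was lost without any 1 of the other 10, from 1.13 to 1.59.

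Among the members with a promoter window, Per3 alone had a D-box in it. The windows run from 250 bases before to 50 after each annotated start. In Per3, 2 matches of TTATGTAA begin 205 and 158 bases before the start, in the stretch chr4:151044791-151044895 (GRCm38.p6, minus strand), where capitals mark the matches. TTATGTAA or TTACGTAA on either strand is in 1.06% of all 32851 promoter windows.
Per3: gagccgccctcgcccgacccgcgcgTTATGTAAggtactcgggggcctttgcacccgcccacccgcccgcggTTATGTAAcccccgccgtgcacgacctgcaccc

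Per2 (mm10 chr1:91415982-91459328) was low in all groups. It was at 4.78, 12.3 and 9.43 normalized CPM after saline and 18.7, 10.9 and 17.2 after ethanol in WT mice, and 15.2, 14.3 and 12.1 after saline and 14.8, 5.01 and 20.2 after ethanol in KO mice. WT ethanol overlapped WT saline through replicate 5, and the low KO ethanol value is replicate 12. The log2 fold change in WT ethanol versus WT saline was 0.84 (SE 0.48), with an unadjusted p of 0.0992 and an adjusted p of 0.346 by edgeR. Without the 2 libraries named with L it was 1.04 with an unadjusted p of 0.0227 by edgeR, where 21.5% of all symbols passed the adjusted level. Per2 followed the length slope most closely of the members, with a correlation of 0.88, and with the trend removed the 12 libraries lay between 9.31 and 16.1 normalized CPM and the log2 fold change was 0.12.

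Per1 (mm10 chr11:69098956-69109957, plus strand), the member best known as an immediate response gene, had no call in the counts as deposited. It was at 14.3, 54.5 and 46.2 normalized CPM after saline and 83.3, 36.5 and 38.3 after ethanol in WT mice, and 38.8, 21.7 and 27.2 after saline and 33.4, 18.4 and 45.0 after ethanol in KO mice. The lowest and the second highest of the 12 values were both WT saline libraries. Its log2 fold change was 0.47 (SE 0.51, unadjusted p = 0.369, adjusted p = 0.631, edgeR) in WT ethanol versus WT saline, -0.034 without WT ethanol replicate 4, and -0.22 (unadjusted p = 0.470) with the length and GC trend removed. In KO saline versus WT saline it was -0.38 (SE 0.51, unadjusted p = 0.461, adjusted p = 0.696, edgeR). With the length and GC trend removed, Per1 was at 43.8, 43.1 and 58.5 normalized CPM after saline and 49.5, 35.6 and 40.3 after ethanol in WT mice, and 27.6, 26.4 and 19.9 after saline and 23.7, 34.3 and 29.8 after ethanol in KO mice. WT and KO libraries then did not overlap after saline or after ethanol, and the share of all symbols that did so was not computed for trend-removed values. KO saline versus WT saline was -0.98 (SE 0.29), with an unadjusted p of 0.00461 and an adjusted p of 0.236 by edgeR. KO ethanol versus WT ethanol was -0.56 (SE 0.30) and did not pass the unadjusted level (unadjusted p = 0.0858, adjusted p = 0.937, edgeR). In that fit 14.3% of symbols passed the unadjusted level in the former comparison and 2.71% in the latter.

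**Figure D4:**
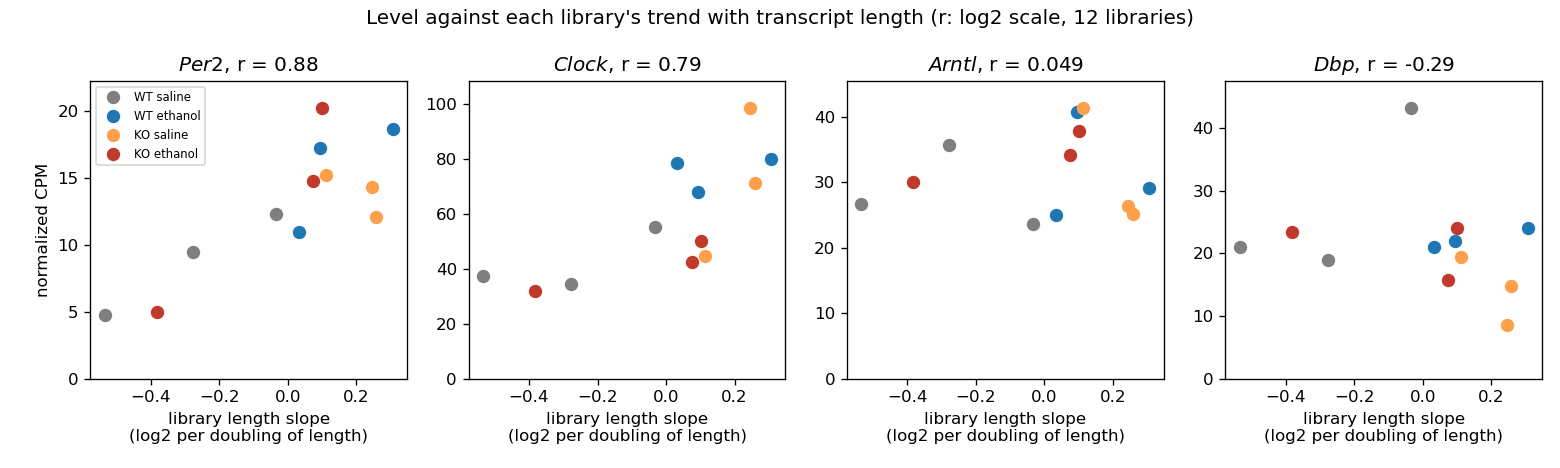
Normalized CPM of Per2, Clock, Arntl and Dbp (y axes) against each library's trend with transcript length (x axes, log2 change in level per doubling of transcript length). Each point is 1 library, coloured by group, and r is Pearson's correlation of the log2 level with the slope over the 12 libraries, a description without a test. It is 0.88 for Per2, 0.79 for Clock, 0.049 for Arntl and -0.29 for Dbp.

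An E-box, the sequence bound by CLOCK and BMAL1, was found in the promoter windows of Per1 and Cry1 and in none of the other windows of members. The table held windows for 9 of the 10 members, 13 in all, and Per2 was not among them. CACGTG, which reads the same on both strands, occurs in 7.15% of all promoter windows, TAGGTCA on either strand in 2.61% and the CRE TGACGTCA in 1.79%, the last in no member's window. The E-box of Per1 begins 166 bases before 1 of its starts (chr11:69098758-69098813, plus strand) and that of Cry1 60 bases before its start (chr10:85185084-85185139, minus strand), shown with the match in capitals.
Per1: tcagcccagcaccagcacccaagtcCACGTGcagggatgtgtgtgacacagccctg
Cry1: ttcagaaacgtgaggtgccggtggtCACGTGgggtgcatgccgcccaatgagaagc

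Cry1 and Cry2 encode the cryptochrome repressors, and the lower means of Cry1 in KO mice did not pass the unadjusted level in the counts as deposited. Cry1 (mm10 chr10:85131700-85185054, minus strand) was at 40.8, 21.6 and 57.3 normalized CPM after saline and 34.0, 25.7 and 45.0 after ethanol in WT mice, and 22.4, 27.0 and 17.2 after saline and 13.7, 3.34 and 30.5 after ethanol in KO mice. Both KO groups had lower means than both WT groups (22.2 ± 4.90 and 15.9 ± 13.7 against 39.9 ± 17.9 and 34.9 ± 9.68, SD, n = 3 each), and KO and WT libraries overlapped. The log2 fold change was -0.86 (SE 0.53, unadjusted p = 0.124, adjusted p = 0.371, edgeR) in KO saline versus WT saline. It was -0.996 (SE 0.53, unadjusted p = 0.0826, adjusted p = 0.982, edgeR) in KO ethanol versus WT ethanol. The KO ethanol value in replicate 12 rests on 2.0 counts. Without KO ethanol replicate 18 the latter was -1.76 (unadjusted p = 0.00950), and without WT saline replicate 3 the former was -1.18 (unadjusted p = 0.0389), both by edgeR. Without both libraries named with L, KO saline versus WT saline was -1.21 with an adjusted p of 0.0401 by edgeR. In that fit 25.3% of all symbols passed the adjusted level, and WT saline held only replicates 1 and 13. After removal of the trend KO saline versus WT saline was -1.09 (SE 0.44), with an unadjusted p of 0.0262 and an adjusted p of 0.302 by edgeR. There 14.3% of symbols passed the unadjusted level.

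Cry2 (mm10 chr2:92403647-92434069, minus strand) had the highest level per length of the members and, in the counts as deposited, no difference larger than its SE. It was at 49.2, 118 and 95.1 normalized CPM after saline and 125, 91.5 and 72.0 after ethanol in WT mice, and 91.5, 68.8 and 89.0 after saline and 83.9, 97.0 and 98.6 after ethanol in KO mice. Over the 4 comparisons of groups its log2 fold changes ran from -0.069 to 0.16 with SE of 0.36, and the lowest unadjusted p was 0.656. With the trend removed it was at -0.36 (SE 0.34) in WT ethanol versus WT saline, a change of sign, and at -0.52 (SE 0.34) in KO saline versus WT saline, with unadjusted p of 0.305 and 0.143 by edgeR. In KO ethanol versus KO saline it was then at 0.40 (SE 0.34, unadjusted p = 0.258, edgeR). D930015M05Rik, an RNA annotated on the opposite strand within its span, had 2.0 counts in all libraries together.

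Nr1d1 and Nr1d2 encode REV-ERBα and REV-ERBβ, the repressors of Arntl. Nr1d1 (mm10 chr11:98767932-98775377, minus strand) varied widely among WT saline libraries. It was at 7.35, 62.7 and 36.1 normalized CPM after saline and 52.7, 46.0 and 40.9 after ethanol in WT mice, and 43.5, 12.9 and 17.9 after saline and 29.5, 51.8 and 43.3 after ethanol in KO mice. The highest and the lowest of the 12 values were both in WT saline, and all groups overlapped. The log2 fold change in KO ethanol versus KO saline was 0.72 (SE 0.61, unadjusted p = 0.255, adjusted p = 0.999, edgeR), and without KO saline replicate 7 it was 1.44 with an unadjusted p of 0.0446 by edgeR. With the trend removed it was 0.89 (unadjusted p = 0.114, edgeR).

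The last exon of Nr1d1 shares 263 bases with that of Thra, the thyroid hormone receptor α gene on the opposite strand (chr11:98768157-98768419). The libraries were stranded, and whether the counting used strand is not stated, so reads of the shared bases cannot be assigned here. Thra was at 62.7, 1132 and 95.9 normalized CPM after saline and 796, 1098 and 1023 after ethanol in WT mice, and 1369, 854 and 1124 after saline and 1421, 152 and 1392 after ethanol in KO mice. It was low in WT saline replicates 1 and 13 and KO ethanol replicate 12, the 3 libraries with the most negative length slopes. In these libraries Nr1d1 was at 7.35, 36.1 and 51.8 normalized CPM.

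By unadjusted p, Nr1d2 (mm10 chr14:18204056-18239106, minus strand) was second to Clock in the interaction. The Per3 interaction had a larger estimate, -1.50 (SE 0.91, unadjusted p = 0.122, adjusted p = 0.450, edgeR). Nr1d2 was at 77.9, 48.8 and 53.5 normalized CPM in WT saline and 68.2, 82.5 and 92.7 in WT ethanol, which overlapped. In KO mice it was at 62.5, 100 and 64.7 after saline and 52.6, 43.5 and 56.1 after ethanol, and all KO ethanol libraries were below all KO saline and all WT ethanol libraries. The log2 fold change was 0.43 (SE 0.32) with ethanol in WT and -0.57 (SE 0.33) with ethanol in KO mice, with unadjusted p of 0.205 and 0.103 and adjusted p of 0.477 and 0.999 by edgeR. The interaction was -0.9996 (SE 0.46), with an unadjusted p of 0.0472 and an adjusted p of 0.322 by edgeR. It passed the unadjusted level without WT saline replicate 1 (-1.21) and was lost without any 1 of the other 11 libraries, from -1.07 to -0.75. With the length and GC trend removed it was 0.15 (unadjusted p = 0.722, edgeR). Like Clock, Nr1d2 has an AT-rich transcript, with 41.8% GC, and the 2 genes had a correlation of 0.70 over the 12 libraries before and 0.37 after removal of the trend.

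Dbp (mm10 chr7:45705247-45710203, plus strand), the D-box activator and a strongly rhythmic output gene in many tissues, was lower in KO than in WT mice after saline. It was at 20.9, 43.2 and 18.9 normalized CPM in WT saline and 19.3, 8.55 and 14.7 in KO saline. After ethanol it was at 24.0, 21.0 and 22.0 in WT and 15.7, 23.4 and 24.0 in KO mice. KO saline overlapped WT saline through replicates 7 and 13, and replicate 3 of WT saline stood above all other libraries. Group means were 27.7 ± 13.5 after saline and 22.3 ± 1.49 after ethanol in WT mice, and 14.2 ± 5.41 after saline and 21.1 ± 4.64 after ethanol in KO mice (SD, n = 3 each).

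For Dbp, the log2 fold change in KO saline versus WT saline was -0.94 (SE 0.42), with an unadjusted p of 0.0403 and an adjusted p of 0.239 by edgeR. Without the trend it was -1.07 (SE 0.37), with an unadjusted p of 0.0124 and an adjusted p of 0.264 by edgeR, where 14.3% of symbols passed the unadjusted level. The 3 KO saline libraries, 15.9, 13.4 and 13.4 normalized CPM, were then below the 3 WT saline libraries, 38.9, 33.1 and 17.8. The share of all symbols without overlap was not computed for trend-removed values. The call was lost without WT saline replicate 3 (-0.52), WT ethanol replicate 5 (-0.94), or KO saline replicate 8 (-0.68) or 9 (-0.96). Scaled by library size without TMM factors, it was -0.55 with an unadjusted p of 0.303 by edgeR. The last exon of Dbp shares 539 bases with Sphk2 on the opposite strand (chr7:45709665-45710203). Sphk2 was at 7.35, 20.6 and 14.3 normalized CPM in WT saline and 22.0, 13.5 and 19.8 in KO saline, and the groups overlapped.

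Of the clock genes outside the 10 members, 1 passed the unadjusted level in a comparison of groups by edgeR. The list held 19 genes: the activator partners Npas2 and Arntl2, the nuclear receptors Rora and Rorb, the D-box factors Tef, Hlf and Nfil3, the repressors Bhlhe40, Bhlhe41, Ciart and Cipc, kinases and ubiquitin ligases of PER and CRY (Csnk1d, Csnk1e, Gsk3b, Fbxl21, Btrc and Fbxw11), Timeless and Usp2. All 19 were tested, and 0 passed an unadjusted p of 0.05 in WT ethanol versus WT saline, in KO saline versus WT saline or in KO ethanol versus KO saline by edgeR, and 1, 1 and 0 passed by DESeq2. Over all symbols the shares by edgeR were 18.3%, 19.6% and 3.15%. Their median log2 fold changes in these comparisons were 0.26, 0.23 and -0.029. In KO ethanol versus WT ethanol, where 3.24% of all symbols passed, 1 of 19 passed by edgeR and 0 by DESeq2. It was Rora, an activator of Arntl (log2 fold change -0.89, unadjusted p = 0.0489, adjusted p = 0.982, edgeR), which is named because it was the single call.

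Genes that, like Per1, respond to neuronal activity or glucocorticoids were compared as well. Of Fos, Egr1, Nr4a1, Junb, Arc, Sgk1, Fkbp5, Tsc22d3, Zbtb16 and Pdk4, 3 of 10 passed the unadjusted level in WT ethanol versus WT saline, all higher, beside 18.3% of all symbols: Arc (log2 fold change 1.93), Fos (2.11) and Pdk4 (1.62). In KO saline versus WT saline 1 of 10 passed (Arc, 1.76), beside 19.6%, and in KO ethanol versus KO saline 1 of 10 (Tsc22d3, -0.91), beside 3.15%. These were named after their values were seen, and no gene of this list passed an adjusted p of 0.05. Their median log2 fold change in WT ethanol versus WT saline was 0.28, against 0.42 for the members and 0.059 for all symbols tested.

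The members did not move as 1 block over the libraries. Of the 45 pairs of members, 28 had a positive Pearson correlation of log2 normalized CPM over the 12 libraries, with a median of 0.27. The highest were Nr1d1 with Cry2 (0.85), Per2 with Per3 (0.80) and Per1 with Cry2 (0.78), and the lowest was Cry2 with Nr1d2 (-0.56). After removal of the length and GC trend the correlation of Nr1d1 with Cry2 was 0.57, that of Per2 with Per3 0.46, that of Per1 with Cry2 0.48 and that of Cry2 with Nr1d2 0.65, a change of sign. These are descriptions of 12 libraries that share groups, depth and normalization. Arntl and its repressor gene Nr1d1 had a correlation of 0.28, and of 0.59 after removal of the trend. The lowest correlation after removal was Per3 with Cry2 (-0.86). In the trend-removed values KO ethanol replicate 12, the library with the fewest counts, was the highest for Arntl (50.7), Nr1d1 (81.5), Nr1d2 (89.3) and Cry2 (164). It was the lowest for Per3 (0.179), so this library weighs on these trend-removed correlations, which are not given without it. For each of the 10 members, the symbol with the most similar pattern among those with a mean of at least 10 normalized CPM was neither a member nor on either list, with correlations from 0.84 to 0.99.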

How the data were processed

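RNA-Seq of somatosensory cortex from 12 libraries was used. The authors dropped low-quality reads and mapped the rest to mm10 (TopHat with Bowtie2). Partek Flow then gave a value for every RefSeq transcript. The estimated counts they deposited, 1 value per transcript, are not scaled for depth and hold fractions where transcripts share reads. The RPKM values the authors deposited derive from those counts, and when sorted they nearly coincide between libraries. The counting settings are not given in the sources used here.

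Groups and replicate numbers were read from the sample labels. No source ties each library to 1 mouse, so p-values measure the spread between libraries. Counts of the 35840 transcripts were added up per symbol and rounded. Under R 4.3.3, edgeR 4.0.16 fitted its quasi-likelihood model to all 12 libraries, 1 mean for each group, after TMM scaling and the default low-count filter. Tests were two-sided and Benjamini-Hochberg adjusted across the 14739 symbols. Normalized CPM are counts scaled to a common TMM-adjusted total. Each SE follows from the log2 fold change and its F value. Totals ran from 719735 to 17066392. The figure given for a count of 0 uses 3 counts and covers counting error only.

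Members and gene lists were chosen with earlier results of these data known. From the list of other clock genes, 2 are not reported here and were left out of its counts. All 10 members are named, with overlapping genes, Trp53, and genes of the other clock list that passed an unadjusted p of 0.05. Alternatives were DESeq2 1.42.0, no TMM factors, other low-count filters (1 count in any library, 10 in every library), the most abundant transcript, limma 3.58.1 on logged RPKM with a pseudocount of 1 or 0.1, a linear model on RPKM, the letter that opens the library name as covariate or as a reason to leave out 2 libraries, only the groups compared, removal of length and GC trends by library (5-df splines, 14581 symbols), and each library left out in turn. The trend-removed fit was planned, but trend-removed values of single libraries, and the overlaps and correlations read from them, were added after seeing the data. Lengths and GC content came from the GENCODE annotation and promoters from RefSeq, both on GRCm38. In simulated counts with 200 symbols changed 4-fold, edgeR recovered 95.5% of them at an unadjusted p of 0.05 in WT ethanol versus WT saline and called 4.8% of the unchanged, and 10.2% with a simulated length trend. The changed symbols were drawn only from those with higher expected counts. Recovery of smaller changes, or at counts as low as those of Per3 in WT saline, was not tested.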

Additional observations from a re-analysis of the deposited data

Results flagged for a closer look

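The ethanol effect on Clock differed between genotypes: its log2 fold change was 0.84 in WT and -0.76 in KO mice, an interaction of -1.60 (unadjusted p = 0.00637, adjusted p = 0.250, edgeR). All 3 WT ethanol libraries were above all 3 WT saline libraries, and 1 of the 3 KO saline libraries lay within the range of KO ethanol. Nr1d2 was marked by the same test, with 0.43 in WT and -0.57 in KO mice and an interaction of -0.9996 (unadjusted p = 0.0472, adjusted p = 0.322, edgeR). Of all symbols tested, 15.2% passed the unadjusted level in this interaction. With the length and GC trend removed the estimates were -0.22 for Clock and 0.15 for Nr1d2.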

How the results depend on the processing

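Clock genes past an unadjusted p of 0.05 numbered 2 in WT ethanol versus WT saline, and 0 with the most abundant transcript, limma on log2(RPKM + 1) or log2(RPKM + 0.1), the linear model on RPKM, or the length and GC trend removed, and 1 with at least 10 counts in every library, the letter as covariate, or only the groups compared. They numbered 3 without TMM factors or without the 2 libraries named with L. In KO saline versus WT saline they numbered 3, and 1 with at least 10 counts in every library, the most abundant transcript, either limma fit, the letter as covariate or only the groups compared, and 0 with the linear model. They numbered 2 with at least 1 count in any library and 4 without the libraries named with L. With the length and GC trend removed they again numbered 3, but these were Per1, Cry1 and Dbp, all lower. Of the calls in the counts as deposited (Clock, Per3 and Dbp), only Dbp was kept. In KO ethanol versus WT ethanol the number was 1, and 0 without TMM factors, with the most abundant transcript, without the 2 libraries named with L or with the trend removed, and 2 with limma on log2(RPKM + 1). For the interaction it was 2, and 1 with DESeq2, at least 1 count in any library, either limma fit, without the libraries named with L or with the letter as covariate, and 0 with the most abundant transcript or the trend removed. For the main effect of Treatment it was 0, and 2 (Per2 and Per3) without the libraries named with L. For KO ethanol versus KO saline it was 0, and 0 in each alternative other than those that left out 1 library at a time. Leaving out 1 library at a time gave 0 to 2 in WT ethanol versus WT saline, 0 to 2 in KO ethanol versus KO saline, 0 to 3 in KO saline versus WT saline, 0 to 2 in KO ethanol versus WT ethanol, 1 to 2 for the interaction and 0 to 1 for the main effect of Treatment. In KO ethanol versus KO saline it was 1 without WT saline replicate 1 or 3 and 2 without KO saline replicate 7. The number in WT ethanol versus WT saline was 0 without WT saline replicate 1 or 13, WT ethanol replicate 4 or 14, or KO saline replicate 9, and that in KO saline versus WT saline was 0 without WT ethanol replicate 5 or KO saline replicate 8 or 9. The share of all symbols differs between fits too, so these numbers alone do not describe the clock genes. With the trend removed it was 15.9% in WT ethanol versus WT saline, 14.3% in KO saline versus WT saline and 10.1% for the interaction. Without the libraries named with L, 21.5% and 25.3% passed even the adjusted level in the first 2 of these. The share for the main effect of Treatment in that fit, and for other alternatives, is not given here.

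With the length and GC trend removed, 19 of the members' 60 log2 values over the 6 comparisons changed sign, 4 of them in WT ethanol versus WT saline (Per1, Cry2, Arntl and Nr1d2) and 4 in KO saline versus WT saline (Per2, Arntl, Clock and Nr1d2). Among them were Clock in KO saline versus WT saline (-0.014), Per1 in WT ethanol versus WT saline (-0.22), Cry2 in the same comparison (-0.36) and the Nr1d2 interaction (0.15). Direction also turned for Per1 in WT ethanol versus WT saline without WT ethanol replicate 4, its highest library (-0.034, in a range of -0.034 to 0.72 over the libraries left out). The cause was not tested. With at least 10 counts in every library, Per2, Per3 and Cry1 could not be fitted because of their 0 to 3 counts in KO ethanol replicate 12. No paired analysis was run, since the labels give neither litter nor pairing and the groups share no replicate number. At 719735 counts, KO ethanol replicate 12 limits every comparison it enters.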
